A study of Bos taurus with 12 samples.

Results

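Genes of the extracellular matrix and of the receptors, proteases and junction proteins that work with it were followed in a comparison of sperm DNA methylation between bulls grouped by the fertility of their daughters. The rule that chose the genes used their names and positions and no methylation value. A gene was a member when a listed locus on chromosomes 1 to 29 lay within 10 kb of its annotated feature and its full name held collagen, laminin, fibrillin, integrin, fibronectin, ADAM metallopeptidase, matrix metallopeptidase, proteoglycan, glypican or claudin. There were 43 such genes among 2469 autosomal genes with a listed locus within 10 kb, 40 of them in the table of single CpG sites (89 sites) and 7 in the table of 500 bp windows (58 windows), with 4 genes in both. The windows overlap and are called tiles below.

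The samples were genomic DNA of cattle (Bos taurus) sperm, 6 labelled low daughter fertility and 6 labelled high daughter fertility. The labels name no breed, age, treatment or batch, and do not say how daughter fertility was scored or whether each sample is a different bull. Whole-genome enzymatic methylation sequencing was used, in which enzymes convert unmethylated cytosines before sequencing. The values are the authors' own group comparison, a signed difference in percentage points with a p-value and a q-value for each locus, on the ARS-UCD1.2 build. The listed loci are a small part of the CpGs of a genome, and how they were selected was not given in the sources used here. Neither the labels nor the headers say which group was subtracted from which, so a sign is given as listed and stands for neither group. Levels of the 12 samples were not analysed here, so the depth and the spread between bulls behind each value are unknown. A locus is called below when its deposited q was under 0.05 and its difference was at least 10 points.

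The extracellular matrix is a mesh of fibrils of collagen, sheets of laminin under epithelia, microfibrils of fibrillin and sugar-bearing proteoglycans. Cells grip it through integrins, which are receptors of an alpha and a beta subunit, and remodel it with ADAM and matrix metallopeptidases. Claudins are membrane proteins that seal tight junctions between neighbouring cells, among them the junctions of Sertoli cells that form the blood-testis barrier. Sperm themselves carry ADAM proteins at their surface and meet integrins on the egg. Mature sperm make little new RNA, so methylation here is a property of the DNA and not a readout of transcripts.

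Large methylation differences at matrix genes were few, and each called locus was a single CpG. Of the 89 member sites 3 were called by the authors' deposited table (3.37%), against 3.27% of all 3276 autosomal sites within 10 kb of a gene with a full name, so the share of calls was close to that background. Negative calls numbered 2 and positive calls 1, where 1.77% and 1.5% of all such sites were called in these directions. At q below 0.05 with any difference there were 5 member sites (5.62%), 3 of them negative, against 5.04% of all such sites in either direction and 2.99% negative. Called sites lay at fibrillin 2, claudin 20 and collagen type XIV alpha 1 chain, which are 3 of 40 member genes (7.5%), where 4.52% of all 1904 such genes had a called site. Smaller differences dominated in the authors' deposited table, with a median of -0.885 points over the 89 sites and a median size of 2.18 points, against -0.303 and 2.38 points over all 3276 sites. Of member sites with a difference other than 0, 67.9% were negative, against 55.7% of all such sites. No member tile was called, so none of 7 genes had one, where 1.27% of all 1256 tiles near a gene with a full name and 1.23% of their 407 genes were called. Of the 58 member tiles 41 had q below 0.05 (70.7%), 38 of them negative (65.5%), against 61.1% and 39.3% of all such tiles, and without the proteoglycan 3 genes described below it was 5 of 11 tiles. The deposited q was lower than the p of the same tile in 55 of the 58, and 8 of the 41 had p of 0.05 or more. By unadjusted p under 0.05 the share was 56.9% (33 tiles), against 53.6% of all such tiles, which is closer to the background than the share by q. In bulk DNA a difference in the share of other cells and a difference within sperm cannot be told apart.

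**Figure D1:**
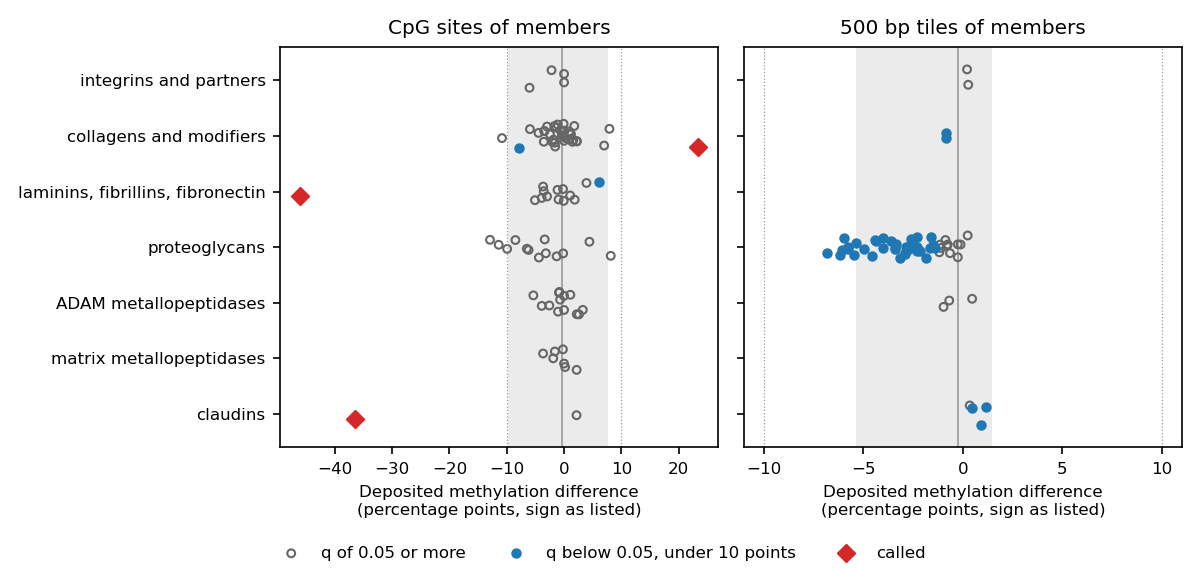
Deposited methylation difference (x axis, percentage points, sign as listed) of each listed CpG site (left, 89 sites) and each 500 bp tile (right, 58 tiles) of the members, one row per role, with vertical jitter for legibility. The grey band spans the 5th to 95th percentile of all autosomal loci near a gene with a full name (-9.59 to 7.51 points for sites, -5.29 to 1.43 for tiles), the grey line is their median, dotted lines mark 10 points, diamonds are called loci and filled circles have q below 0.05. Called sites at -46.1, -36.4 and 23.5 points stand far outside the band, while tiles below 0 are mostly those of the proteoglycan row.

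Fibrillin 2 (ENSBTAG00000015307), a microfibril protein best known from fetal connective tissue, had the lowest value of any member. Its site on the minus strand of chromosome 7 (position 25559761) lies in an intron, 4893 bp from the nearer end, and stood at -46.1 points (p = 1.61e-10, q = 8.78e-08), as listed in the authors' deposited table. Only 1 of the 3276 named-gene sites within 10 kb had a lower difference. The other fibrillins showed nothing of that size. Fibrillin 1, the main adult microfibril protein, had sites at 1.85 and 1.07 points, and fibrillin 3 had 1 site at -0.956 points, all with q of at least 0.706, in the authors' deposited table.

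Claudin 20 (ENSBTAG00000046726), a tight junction protein, had 1 site, in its promoter. On the minus strand of chromosome 9 (position 91885854), 411 bp from the coding sequence, it stood at -36.4 points (p = 3.3e-11, q = 8.17e-09), as listed in the authors' deposited table. In that table claudin 11, which seals junctions of Sertoli cells and of myelin, had an intronic site at 2.18 points (q = 0.479). Claudin 8, a junction protein of kidney and gut epithelium, appeared only among tiles. Its 4 overlapping tiles (chromosome 1, positions 5770201 to 5771000), from the promoter into the coding sequence, ran from 0.345 to 1.14 points in the authors' deposited table, and 3 of them had q below 0.05.

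Collagen type XIV alpha 1 chain (ENSBTAG00000013369), a collagen that lies along the surface of larger fibrils, held the positive call. The site on the plus strand of chromosome 14 (position 81696965), in an intron 992 bp from the nearer end, stood at 23.5 points (p = 0.00229, q = 0.0219), as listed in the authors' deposited table. Its other sites went different ways, at -10.8 points (q = 0.262) and 1.47 points (q = 0.348), as listed in the authors' deposited table, and both were intronic.

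No called site had a listed neighbour that could be set beside it. Within 50 kb of each of the 3 there was no other listed site and no listed tile. The closest listed site lay 267897 bp from that of fibrillin 2, 192888 bp from that of claudin 20 and 143221 bp from that of collagen type XIV alpha 1 chain, and the closest tile at least 2218065 bp away. Each of these calls therefore rests on a cytosine of 1 strand.

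The deposited q at collagen type XIV alpha 1 chain is also tied to its chromosome. Deposited q rose with p within every one of the 24 chromosomes of the site table but not across them. The closest listed p at or above that of this site carried a deposited q below 0.05 on 13 of 23 autosomes, with values from 0.0219 to 0.0843 in the authors' deposited table. These p-values were not equal and reached 0.00341, so the spread in q also holds differences in p. On chromosome 15 the compared p was 0.00229 and its q was 0.0577. Benjamini-Hochberg values recomputed from the deposited p over the 17730 listed sites, which need not be all that were tested, were 0.0389 for this site, 1.19e-07 for fibrillin 2 and 3.44e-08 for claudin 20. By these values, which take no account of chromosome, all 3 sites stayed called.

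**Figure D2:**
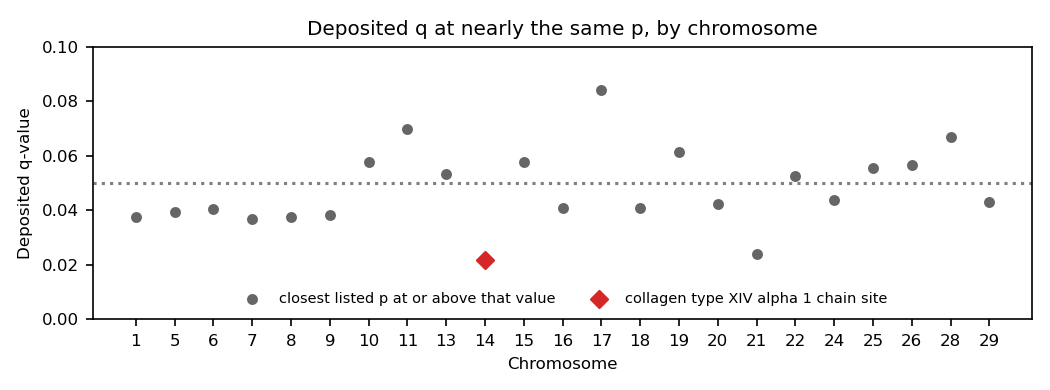
Deposited q-value (y axis) of the listed CpG site whose p is closest to, and not below, that of the called collagen type XIV alpha 1 chain site, for each autosome of the site table (x axis). The diamond is the collagen site itself at 0.0219, the lowest of 23, and the dotted line is q of 0.05. A total of 13 autosomes lie under the line. The compared p-values are not equal and reach 0.00341.

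Collagens and the proteins that modify them made up 36 of the member sites, in 8 genes, with 20 negative, 13 positive and 3 at 0. Collagen type XXVII alpha 1 chain, a fibril collagen of cartilage, held 23 of these sites along chromosome 8 from position 103474242 to 103537129, which is 25.8% of all member sites. Signs were mixed along the gene, with 12 negative, 9 positive and 2 at 0, and 20 of the 23 lay within 5 points of 0 in the authors' deposited table. Only the intronic site at position 103506464 had q below 0.05, at -7.89 points (q = 0.0253), while 2 positive sites of like size, 6.99 and 7.92 points, had q of 0.0882 and 0.0571 in the authors' deposited table. With it, 6 listed sites crowd into 626 bp (103506242 to 103506867), of which the first 3 in order of position were negative and the last 3 positive. Those at positions 103506242, 103506498 and 103506867 stood at only -0.080, 0.890 and 0.261 points in the authors' deposited table, so this order of signs rests partly on values near 0. The 4 sites 11 to 96 bp past the 3′ untranslated region spanned -3.45 to 2.24 points in the authors' deposited table.

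The same gene also had 2 overlapping tiles (positions 103502001 to 103502600), at -0.867 and -0.835 points with q of 0.0163 and 0.0224 in the authors' deposited table. No listed site lay inside them. A difference under 1 point thus passed q in the tile table, where 61.1% of all 1256 tiles near a gene with a full name had q below 0.05.

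**Figure D3:**
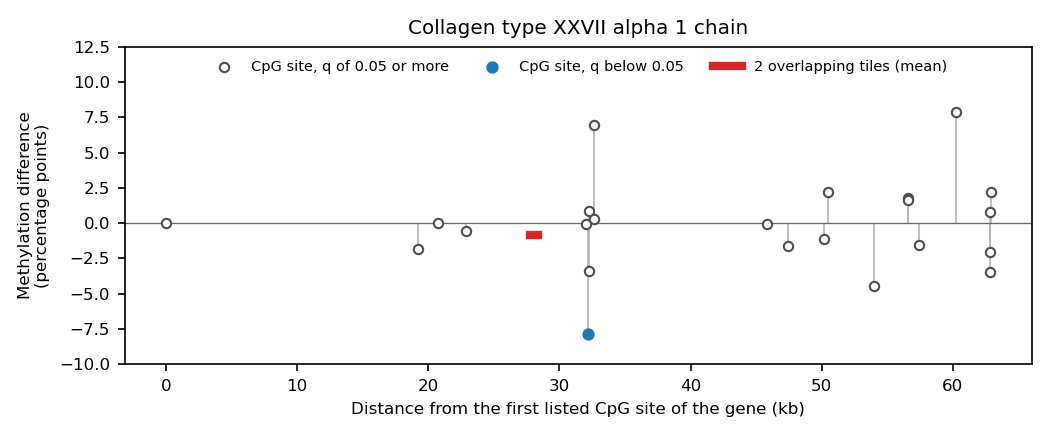
Deposited methylation difference (y axis, percentage points) of the 23 listed CpG sites of collagen type XXVII alpha 1 chain against distance from the first of them (x axis, kb). The bar marks the mean of 2 overlapping tiles. Sites of both signs mix along the gene, and the 1 filled site with q below 0.05 sits at -7.89 points among 5 neighbours that do not pass.

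Other collagens stayed close to 0 and none had q below 0.05. Collagen type VI alpha 5 chain, of the beaded filament collagens, had 2 intronic sites at -3.53 and -2.97 points, each with unadjusted p under 0.05 but q of 0.189 and 0.188 in the authors' deposited table. Collagen type XII alpha 1 chain, a relative of type XIV, collagen type VIII alpha 1 chain, collagen and calcium binding EGF domains 1 and collagen beta(1-O)galactosyltransferase 2, which adds galactose to collagen, ranged from -2.47 to 1.2 points over 7 sites in the authors' deposited table. Matrix metallopeptidase 1 was counted in this group because its full name includes interstitial collagenase. It cuts fibrillar collagen, and its site 2456 bp past the 3′ untranslated region stood at -5.95 points (q = 0.528), as listed in the authors' deposited table.

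Laminins were measured at 8 sites of 4 genes, all in introns. Laminin subunit alpha 2, the alpha chain of muscle basement membranes, had 4 of them on chromosome 9, at 6.12, -5.08, -0.179 and -3.54 points in order of position in the authors' deposited table. The first (position 67384181) had q = 0.0469, and the other 3 had q of at least 0.324. Signs thus differed within the gene. Laminin subunits alpha 1, alpha 5 and gamma 2 ranged from -3.66 to 3.91 points with q of at least 0.382 in the authors' deposited table. Fibronectin type III domain containing 3B, a membrane protein that shares a fold with fibronectin but is no matrix component, had sites at -1.15 and -3.90 points in that table.

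Integrins gave few loci and no calls. Integrin subunit alpha 11, a receptor for fibrillar collagen, had 1 intronic site (chromosome 10, position 15203282) at -6.02 points (p = 0.00435, q = 0.0795), as listed in the authors' deposited table. Integrin subunit alpha 1, another collagen receptor, and integrin subunit alpha L, of the leukocyte integrin that binds intercellular adhesion molecules, each had 1 site with a difference of 0 by the authors' deposited table. Integrin subunit beta 3, which pairs with alpha V in a receptor for vitronectin, had 2 tiles 6385 and 6485 bp past its 3′ untranslated region, at 0.211 and 0.270 points with q of 0.217 and 0.181 in the authors' deposited table. Calcium and integrin binding family member 2, an integrin-binding protein known from hair cells of the ear, had a site at -2.18 points (q = 0.581), as listed in the authors' deposited table.

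Proteases that cut the matrix showed small differences throughout. The 9 ADAM metallopeptidase genes of the site table held 13 sites between -5.36 and 3.27 points, with 7 negative, 4 positive, 2 at 0 and none with q below 0.05 in the authors' deposited table. Among them were motif 9 and motif 20 of the family with thrombospondin repeats, which cut proteoglycans, and ADAM metallopeptidase domain 12. ADAM metallopeptidase with thrombospondin type 1 motif 2, which trims the ends of fibrillar procollagens, was seen only among tiles, where 3 overlapping intronic tiles (chromosome 7, positions 2235101 to 2235800) gave -0.683, -0.969 and 0.466 points with q of at least 0.0638 in the authors' deposited table.

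Matrix metallopeptidases 3, 8, 9, 19 and 20 had 7 sites, from -3.66 to 2.20 points in the authors' deposited table, and none had q below 0.05. Matrix metallopeptidases 3, 8 and 20 lie with matrix metallopeptidase 1 in a gene cluster on chromosome 15, where 5 sites were listed between positions 5784869 and 6078453. The signs in the cluster were mixed. Stromelysin, matrix metallopeptidase 3, stood at -1.89 points and the tooth enamel protease matrix metallopeptidase 20 at -3.66 points, while the 2 promoter sites of neutrophil collagenase, matrix metallopeptidase 8, stood at 0.183 and 2.20 points in the authors' deposited table.

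The proteoglycan 3 cluster on chromosome 15 was where most member tiles lay, and nearly all of them were negative. Proteoglycan 3 is, in human, a granule protein of eosinophils related to major basic protein, and its name and not a place in the matrix made it a member. Here 2 genes named proteoglycan 3 (ENSBTAG00000020285, here the first copy, and ENSBTAG00000002007, the second) and proteoglycan 3-like (ENSBTAG00000049504) held 47 of the 58 member tiles and 12 of the 89 member sites, between positions 80586801 and 80622900. Of the 47 tiles 46 were negative and 36 had q below 0.05 in the authors' deposited table (76.6%), with a median of -2.61 points. The other 197 tiles of chromosome 15 had a median of -1.86 points, with 82.2% negative and 85.8% at q below 0.05, so this share of small q-values was no higher than on the rest of the chromosome. No tile of chromosome 15 had a deposited q above 0.159, and q was lower than p in 46 of the 47. By the deposited p, 28 of the 47 were under 0.05, so 8 of the 36 were not, and 26 had a Benjamini-Hochberg value under 0.05 when recomputed over all listed tiles. These genes share a name, and how reads from one copy were kept apart from another was not stated in the labels or headers.

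Tiles of the first copy lay in its promoter class, 2094 to 5694 bp before the 5′ untranslated region. The block from 80586801 to 80588200 held 8 tiles between -3.41 and -1.61 points, and the block from 80588901 to 80590900 held 16 tiles between -6.82 and -0.759 points in the authors' deposited table. Within the second of these lay the lowest value of any member tile (80589001 to 80589500), with q = 6.81e-10 by the authors' deposited table. Next to this block, 3 tiles listed under proteoglycan 3-like lay 5760 to 6060 bp past its last exon. These 3 tiles ran from -3.42 to -2.28 points in the authors' deposited table, all with q below 0.05. The second copy had 12 tiles past its last exon (80612701 to 80614800), from -5.98 to 0.242 points with 11 at q below 0.05 but 7 at p below 0.05, in the authors' deposited table. Nearer and inside that copy the differences were smaller, with 4 tiles at its 3′ end from -1.09 to -0.114 points and 4 promoter tiles from -2.60 to -0.252 points in the authors' deposited table. Overlapping tiles share CpGs, and only 12 of the 47 can be chosen without overlap.

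Single sites of the cluster were mostly negative too, but none had q below 0.05. Of 12 sites 10 were negative, with a median of -5.29 points in the authors' deposited table, while 57.6% of the other chromosome 15 sites with a difference other than 0 were negative (median -0.752 points). The lowest were -12.9 points (q = 0.204) in the promoter of the second copy at position 80622091, and -11.4 points (q = 0.212) in its intron at position 80620263, in the authors' deposited table. Both strands were listed for 1 CpG, before the first copy (positions 80590123 and 80590124), and they stood at -0.156 and -9.93 points in the authors' deposited table, which shows how far 2 readings of a single CpG can lie apart. In 11 of the 12 cluster tiles that held a listed site, the tile had the sign of the mean of its sites. Many of these tiles overlap, and the 12 hold only 6 distinct sites, so the 11 are not separate cases. The exception, past the second copy, had a tile at -2.29 points around a site at 4.43 points in the authors' deposited table. Tiles and sites come from the same samples, so this is no independent measurement.

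**Figure D4:**
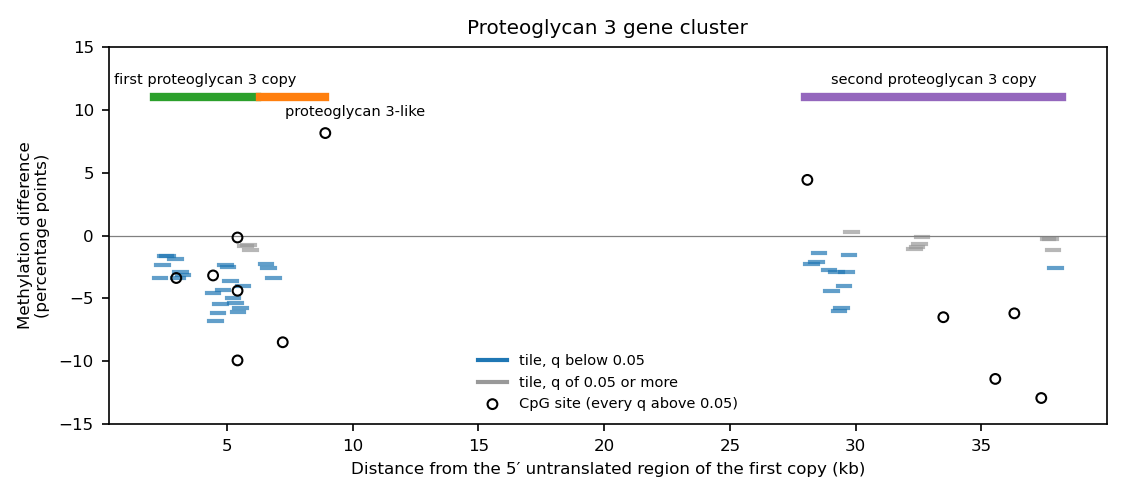
Deposited methylation difference (y axis, percentage points) of tiles (segments of 500 bp) and CpG sites (open circles) across the proteoglycan 3 cluster, against distance from the 5′ untranslated region of the first copy toward higher positions (x axis, kb). Blue segments have q below 0.05, though 8 of these 36 have p of 0.05 or more, grey ones do not, and the bars at the top show the stretch over which loci were listed for each gene, not the gene itself. Of the 47 tiles 46 lie under 0, down to -6.82 points, and 10 of the 12 sites do.

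SPARC (osteonectin), cwcv and kazal like domains proteoglycan 1, a proteoglycan of the testis and brain matrix known as testican, had 1 intronic site within 10 kb of the intron's end, at -1.30 points (q = 0.630), as listed in the authors' deposited table. No glypican was a member, since that of the X chromosome lies outside the rule.

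The members sat mostly in introns. Of the 89 sites, 64 lay inside an intron (71.9%), 11 in the promoter class and 11 downstream, where 60.2% of all 3276 sites were intronic and 15.8% in the promoter class. Tiles had another makeup, with 29 of 58 in the promoter class and 5 in introns, and 28 of the promoter tiles were of the proteoglycan 3 cluster. Among 40 genes with sites, 22 had 1 listed site, so a gene's value is often that of 1 cytosine, and 29 genes had every listed site within 5 points of 0. The median site was negative in 29 genes (72.5%), positive in 9 and 0 in 2, against 52.3% negative among all 1904 genes. Of the 18 genes with several sites, 7 had both signs.

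The 10 kb limit is measured in introns to the nearer end of the intron, so loci deep in long introns are not members. Just inside the limit were 2 sites of ADAM metallopeptidase with thrombospondin type 1 motif 8, at 9905 and 9917 bp, with differences of -5.36 and -0.885 points in the authors' deposited table. Just outside were a site of claudin domain containing 1 at 10445 bp (0.139 points) and an intronic site of ADAM metallopeptidase with thrombospondin type 1 motif 19 at 10457 bp in the authors' deposited table. The last was listed at 15.6 points (q = 0.0104), which would have been called, while the member site of that gene stood at -2.57 points in that table.

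Other genes of the pathway came from lists of names outside the rule. Of 10 further matrix genes with 18 sites, 1 site was called, at an intron of unc-5 netrin receptor C, a guidance receptor that is no matrix component and was matched by the word netrin, with -22.3 points (q = 0.0241), as listed in the authors' deposited table, beside 10 negative and 7 positive sites overall and a median of -0.820 points. Versican, tenascin C, fibulin 5, syndecan 2 and lysyl oxidase like 3 of that list lay between -5.75 and 6.52 points in the authors' deposited table. Of 20 genes matched by words for focal adhesions and cell junctions, with 28 sites, 2 sites were called, and the median was 1.12 points. Matching was by name only, so genes such as catenin beta like 1 and filamin A interacting protein 1 like are counted without a check of their role. The signs of that list were mixed, and its median size was 4.58 points, against 2.38 points over all 3276 sites, with 10.7% at 10 points or more, against 7.60% of all sites. Parvin alpha, an adaptor that links integrins to actin, stood at 21.2 points (q = 0.00751), and dachsous cadherin-related 2, a large cadherin, at -28.3 points (q = 0.0171), both intronic, in the authors' deposited table. These calls were 5.56% of the sites of the matrix list and 7.14% of those of the adhesion list, against 3.27% of all sites, and each list holds few loci. The other 9 genes of the matrix list had no called site. Talin 2, fermitin family member 2 and protein tyrosine kinase 2 (focal adhesion kinase), which join integrins to the cell interior, lay between -4.49 and 1.27 points in that table.

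The sperm label could not be checked against markers, since a table of differences shows no levels. None of the leukocyte marker genes looked for was among the autosomal genes with a listed locus within 10 kb. Of the germ line genes DEAD-box helicase 4 and piwi like RNA-mediated gene silencing 3 were, at -1.75 and -3.70 points with q of at least 0.322 in the authors' deposited table.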

How the data were processed

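Per the labels, DNA of 12 sperm samples (6 low, 6 high daughter fertility) was sequenced by enzymatic methylation sequencing. Trimmomatic, Bismark and methylKit are named, without versions, in the submitters' processing notes, as is the ARS-UCD1.2 build. The authors deposited 2 tables of their group comparison, 17730 CpG sites and 7290 tiles of 500 bp at 100 bp steps, each locus with its signed difference in percent methylated, p-value and q-value. Coverage filters, the test and the q adjustment were not given in the sources used here. The depth is unknown, so no interval or new group test was made. Loci were parsed in Python 3.11.15 with pandas 2.3.3 from the annotation the authors deposited, and code was tested on simulated tables. No listed site lay on chromosomes 2, 3, 4, 12, 23 or 27, and no listed tile on chromosomes 12, 23 or 27.

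Members, lists and thresholds were chosen with earlier results of these data known. Genes described are those with a call, in both tables, among the 10 largest differences per table, or among the 5 with most loci; others are named, with their values seen, to account for each role group. In all, 10 planned and 2 later alternatives were tried.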

Additional observations from a re-analysis of the deposited data

How the results depend on the processing

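With a minimum difference of 5 points, 5 member sites in 5 genes and 8 member tiles in 2 genes were called. All 8 tiles were of the proteoglycan 3 cluster, and many of them overlap. The share over all loci at 5 points was not computed. The 5th percentile of all tiles near a gene with a full name was -5.29 points, so tiles of this size were not confined to the members. With no minimum, 5 sites in 5 genes (5.62% of member sites) and 41 tiles in 5 genes (70.7% of member tiles) were called. Of all sites and tiles near a gene with a full name, 5.04% and 61.1% had q below 0.05. With q below 0.01 the called sites were 2 and 100% negative (2 of 2), since that of collagen type XIV alpha 1 chain drops out. The share over all sites at q below 0.01 was not computed. At the main threshold, 54.2% of the 107 called sites near a gene with a full name were negative. A share of 2 sites is too small to show a direction. Other settings gave 2 to 4 called sites and no called tile. The share of negative sites stayed between 65.2% and 71.7% in all settings that could change it. That of tiles, 86.2%, was 70.6% within 2000 bp, 55.6% inside the annotated feature, 66.7% with overlapping tiles merged and 36.4% without the 3 proteoglycan 3 genes, which leaves 11 tiles. That last setting, and introns of any depth, were chosen after seeing the data. No paired analysis was possible because the tables hold no values per sample. For the same reason no sample could be left out, and no coverage limit could be changed.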

Other observations

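Loci of genes with matching names that the 10 kb limit or the autosome rule left out held 3 calls, picked here after their values were seen. Of these calls, 2 were among 38 autosomal sites, where 4.48% of all listed autosomal sites were called. The other was 1 of 16 sites of the X chromosome, all of 1 gene, and the share over all X sites was not computed. Collagen type VI alpha 5 chain had a site 15426 bp from its 5′ untranslated region (chromosome 1, position 151924136) at 24.6 points (q = 0.0125), as listed in the authors' deposited table, while its 2 member sites were negative. The intronic site of ADAM metallopeptidase with thrombospondin type 1 motif 19, given above at 15.6 points, lies on chromosome 7 at position 24535829. Glypican 3, a heparan sulfate proteoglycan of the X chromosome that restrains growth, had 16 intronic sites, 13 of them negative, and 1 was called at -11.1 points (q = 0.000977, position 17634432), as listed in the authors' deposited table. The 1 glypican 3 tile stood at -4.56 points in that table.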
